A study of Mus musculus and Rattus norvegicus with 11 samples.

Results

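The genes described here are the mouse Fc gamma receptors Fcgr1, Fcgr2b, Fcgr3 and Fcgr4, the shared signalling subunit gene Fcer1g, and Fcgrt, which encodes the large chain of the neonatal Fc receptor. They were chosen by symbol and make up 6 of the 31053 genes counted in mouse peripheral nerve cells. The symbols Fcgr2b, Fcer1g and Fcgrt are also 3 of the 32883 genes counted in rat nerve. Their positions are given on GRCm38 (mm10) with the GENCODE M21 annotation. Fcgr2b (ENSMUSG00000026656, chr1:170958617-170976547, minus strand), Fcgr4 (ENSMUSG00000059089, chr1:171018920-171029761, plus strand), Fcgr3 (ENSMUSG00000059498, chr1:171051174-171064935, minus strand) and Fcer1g (ENSMUSG00000058715, chr1:171229572-171234365, minus strand) lie side by side on chromosome 1. Fcgr1 (ENSMUSG00000015947, chr3:96282909-96293969, minus strand) lies on chromosome 3, and Fcgrt (ENSMUSG00000003420, chr7:45092990-45103851, minus strand) on chromosome 7.

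Fc gamma receptors bind the constant part of IgG and link antibody to the cells that carry out its effects. The receptors encoded by Fcgr1, Fcgr3 and Fcgr4 are activating: they reach the cell surface with the Fcer1g chain, whose activation motif recruits the kinase Syk once receptors are cross-linked by immune complexes. Fcgr2b encodes the only inhibitory receptor of the family, with an inhibitory motif in its own tail, and is the Fc gamma receptor of B cells as well as one of those of macrophages. The neonatal Fc receptor, Fcgrt paired with beta-2 microglobulin, works inside cells, where it protects IgG and albumin from breakdown and carries them across cell layers. Macrophages of peripheral nerve take up myelin debris, and antibodies bound to nerve can engage their Fc receptors.

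Cells were profiled by droplet sequencing of the 3′ ends of transcripts, with unique molecular identifiers (UMIs) that count each captured molecule once. The mouse tissue was sciatic nerve with brachial plexus, digested with enzymes and cleared of myelin before live cells were sorted. There were 3 libraries of the genetic background labelled ICAM-1-1/-NOD, called the knockout-labelled libraries below, 3 libraries of NOD control mice and 3 of C57BL/6 mice. NOD mice are inbred and develop autoimmune disease, and the Icam1 product is a surface molecule to which leukocyte integrins bind. The labels give no age, sex, drug or number of animals, and no allele of Icam1. Control libraries 2-1 and 2-2 share a number and were summed as NOD control 2, which leaves 3 knockout-labelled, 2 NOD control and 3 C57BL/6 samples (numbers 1, 3 and 4). The labels do not say that the knockout-labelled libraries came from separate animals, so p-values measure only the spread between these libraries, which may be technical. Sciatic nerve cells of naive Lewis rats, purified on a density gradient and not sorted, gave 2 libraries. Reads of all mouse groups were counted on mm10, the C57BL/6J reference. In sums over cells of this kind, a smaller share of cells that carry a transcript and less of it per cell cannot be told apart.

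The mouse libraries held 400 to 3800 cell barcodes and 571042 to 6631004 UMIs, with medians of 591 to 1530 UMIs per barcode. The authors named the cell type of 15672 of 16050 mouse barcodes, and their names are used as deposited (MC, MP, pDC, BC, CD4, CD8, TC, nmSC, mySC, fibro, EC and others). Barcode sequences found in more than 1 mouse library numbered 162, with at most 15 shared by any pair of libraries. Icam1 had 248, 262 and 254.5 UMIs per 1e6 UMIs of the same cells (CPM) in all named cells of knockout-labelled libraries 1, 2 and 3, against 94.5 and 51.1 CPM in NOD control 1 and 2, and 81.8, 88.1 and 48.0 CPM in C57BL/6 1, 3 and 4. Transcripts of the targeted gene were therefore not lower under the knockout label, and since the deleted part is not given, 3′ counts do not check the genotype.

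Cells named MC in NOD mice and MP in C57BL/6 mice carried the macrophage genes C1qa, C1qb, C1qc, Csf1r and Cd68. Over the MC, MP and pDC names together, here the myeloid cells, 9 of the 9 macrophage markers had UMIs in each sample except C57BL/6 4, where Ms4a7 was at 0. Their summed level ranged from 3239 to 5578 CPM in knockout-labelled libraries, 6112 to 6584 CPM in NOD controls and 2796 to 7121 CPM in C57BL/6 mice. The monocyte list (Ly6c2, Ccr2, Plac8, Chil3, Vcan) summed to between 2636 and 3734 CPM in knockout-labelled libraries, against 919.6 and 1276 CPM in NOD controls and 1291 to 2760 CPM in C57BL/6 mice. The T cell list (6 of 6 genes with UMIs in each knockout-labelled library, 0 and 4 in NOD controls) summed to between 222 and 470.3 CPM in knockout-labelled myeloid cells, against 0 and 63.5 CPM in NOD controls and 0 to 17.8 CPM in C57BL/6 mice. The plasmacytoid list summed to between 1929 and 2919 CPM in knockout-labelled libraries, against 942.1 and 850.5 CPM in NOD controls, and the mast cell list was at or near 0 throughout. The dendritic list summed to between 368.7 and 546.3 CPM in knockout-labelled libraries, 347.7 and 405.7 CPM in NOD controls and 191.6 to 718.9 CPM in C57BL/6 mice. The fibroblast list (Dcn, Lum, Pdgfra, Col1a1, Gsn) summed to between 429.4 and 666.5 CPM in knockout-labelled libraries, against 560.8 and 1760 CPM in NOD controls. In C57BL/6 mice that list summed to between 301.8 and 1321 CPM, and its part in the levels below was not tested. The neutrophil list summed to between 626.5 and 1050 CPM in knockout-labelled libraries, against 1222 and 1061 CPM in NOD controls and 6143, 3575 and 8.88 CPM in C57BL/6 1, 3 and 4. Of the 46 cells named MC in C57BL/6 mice, 2 had a C1qa, C1qb or C1qc UMI and 4 had at least 1% of UMIs from neutrophil genes. MP alone was set against NOD MC as an alternative chosen after seeing the data.

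Levels of Fcgr1, Fcgr3 and Fcgr4 were highest in MC and MP. By UMIs Fcgr1 was less confined. In NOD controls MC held 44 Fcgr1 UMIs, nmSC 10 and mySC 8, and in knockout-labelled libraries MC held 261 and lymphoid cell names 48. Fcgr1, the high-affinity IgG receptor, had 482 CPM in pooled knockout-labelled MC, 155 CPM in NOD control MC and 30.01 CPM in C57BL/6 MP, while its pooled level in every other type of at least 20 cells was at most 20 CPM apart from C57BL/6 MC, at 34.6 CPM. Fcgr3, a low-affinity activating receptor that macrophages share with natural killer cells, had 312 CPM in knockout-labelled MC, 513 CPM in NOD control MC and 362 CPM in C57BL/6 MP. Outside MC and MP its highest pooled level was 11.1 CPM, 1 UMI in knockout-labelled EC. Fcgr4, an activating receptor of monocytes, macrophages and neutrophils, was the rarest, with 92.3 CPM in knockout-labelled MC, 42.2 CPM in NOD control MC and 12 CPM in C57BL/6 MP, and 1 UMI in all mouse names other than MC and MP together. The 46 knockout-labelled pDC had no UMI of any of these 3 genes in 124480 UMIs, a count that allows up to 24.1 CPM.

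**Figure D1:**
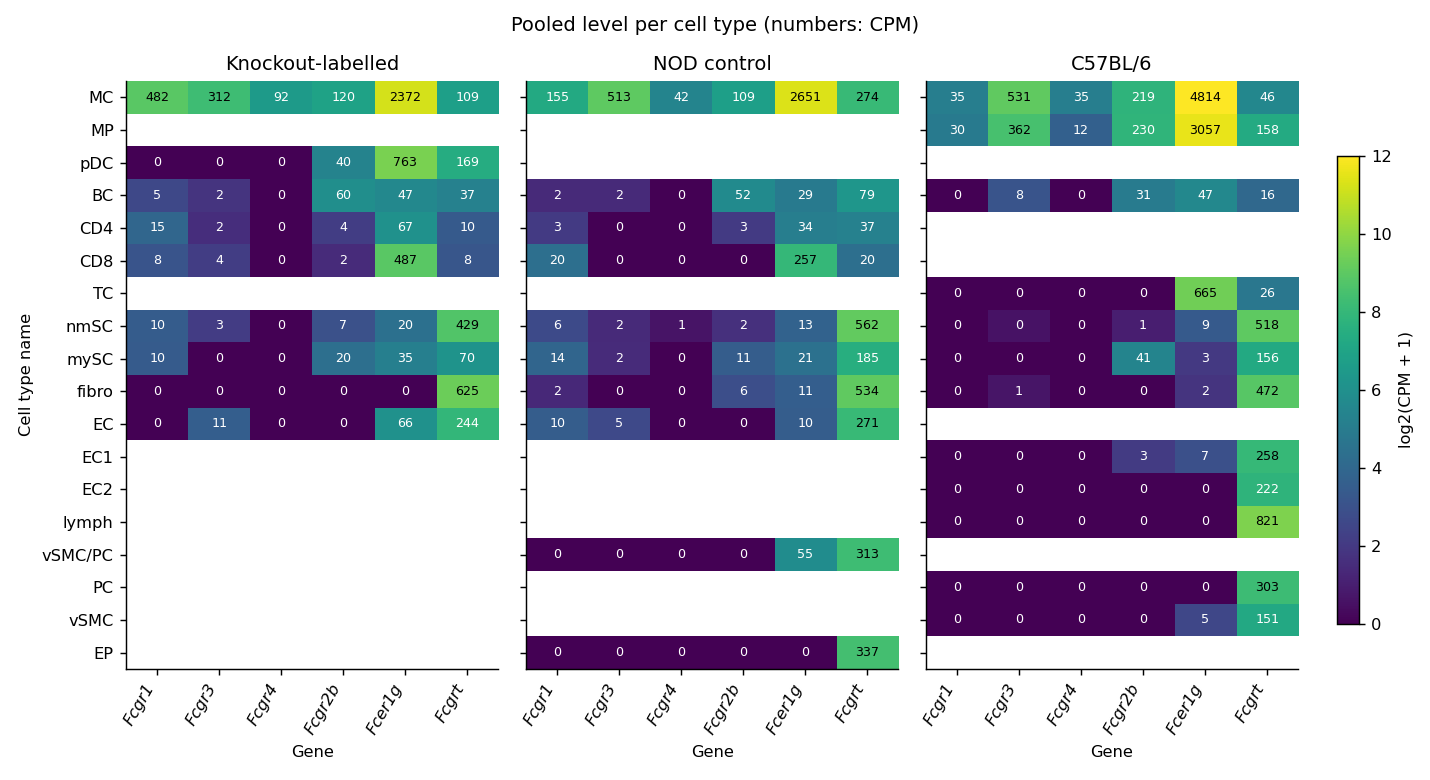
Pooled level of the 6 genes (columns) in each cell type with at least 20 cells (rows) for knockout-labelled, NOD control and C57BL/6 libraries; colour is log2(CPM + 1) and the printed number is CPM. Fcgr1, Fcgr3 and Fcgr4 stand out in MC and MP, Fcer1g also in pDC, CD8 and TC, Fcgr2b also in BC, and Fcgrt runs through nmSC, fibro and vessel cells.

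The promoters of these 3 genes are shown because their levels were highest in the same cell names, MC and MP. Fcgr1 and Fcgr3 nevertheless moved in opposite directions between groups, as described next. Each line gives the 250 bases before the start site that RefSeq lists first (GRCm38.p6), 5′ to 3′ along the gene's strand. Start sites differ between annotations, and the Fcgr3 window lies inside the GENCODE bounds given above, whose outer end belongs to a transcript that starts farther upstream. Capitals mark GAGGAA in either orientation (TTCCTC on the printed strand), a form of site bound by PU.1, an ETS factor of myeloid cells. They also mark TTCNNNGAA, the palindromic core of STAT sites.
Fcgr1, chr3:96293970-96294219, minus strand: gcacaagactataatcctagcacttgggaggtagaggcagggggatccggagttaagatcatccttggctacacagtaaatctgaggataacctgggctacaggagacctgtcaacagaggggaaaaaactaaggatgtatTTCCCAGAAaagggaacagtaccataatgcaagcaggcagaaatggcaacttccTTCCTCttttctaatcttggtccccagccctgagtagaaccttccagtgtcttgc
Fcgr3, chr1:171059404-171059653, minus strand: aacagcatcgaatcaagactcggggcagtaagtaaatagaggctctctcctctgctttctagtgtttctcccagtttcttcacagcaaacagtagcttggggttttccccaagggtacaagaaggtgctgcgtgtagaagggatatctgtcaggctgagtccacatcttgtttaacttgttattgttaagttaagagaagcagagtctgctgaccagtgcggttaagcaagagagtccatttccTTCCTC
Fcgr4, chr1:171018676-171018925, plus strand: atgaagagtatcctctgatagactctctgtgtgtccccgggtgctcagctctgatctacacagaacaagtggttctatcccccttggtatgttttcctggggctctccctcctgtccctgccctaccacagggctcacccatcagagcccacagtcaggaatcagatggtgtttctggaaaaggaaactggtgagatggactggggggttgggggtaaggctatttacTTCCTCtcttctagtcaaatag
GAGGAA occurred in the windows of Fcgr1, Fcgr3 and Fcgr4, and in those of none of Fcgr2b, Fcer1g and Fcgrt. The shorter GGAA, the core that ETS factors share, was not marked and is present in the windows of Fcgr2b, Fcer1g and Fcgrt too. TTCNNNGAA occurred in the Fcgr1 window alone among the 6 genes, as TTCCCAGAA from base -109 to base -101 before the start. Of 32851 promoter windows of the same length, 23.3% held GAGGAA, 7.02% held TTCNNNGAA and 1.62% held both. A match describes the letters in the window and no binding was measured.

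In myeloid cells Fcgr1 was higher, and Fcgr3 and Fcgrt were lower, in knockout-labelled libraries than in NOD controls. Fcgr1 had 425, 382 and 366 CPM in knockout-labelled libraries 1, 2 and 3, against 123.4 and 161 CPM in NOD controls 1 and 2. No knockout-labelled library overlapped a control, with a fitted log2 fold change of 1.24 ± 0.26 (SE, 3 against 2 samples, quasi-likelihood test of edgeR, adjusted p = 0.0044). Fcgr3 had 243, 271 and 247 CPM in knockout-labelled libraries, against 482 and 503.5 CPM in NOD controls. The groups stood apart by far more than the spread within either, with a log2 fold change of -1.13 ± 0.22 (adjusted p = 0.00209). Fcgrt had 126, 102 and 133 CPM in knockout-labelled libraries, against 269 and 264 CPM in NOD controls. These groups did not overlap either, with a log2 fold change of -1.31 ± 0.26 (adjusted p = 0.00305). In this comparison 16.4% of the 3514 genes tested were called, 285 higher and 291 lower, and the median log2 fold change over all of them was 0.04.

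The other 3 genes were not called between knockout-labelled libraries and NOD controls. Fcgr4 had 86.7, 71.1 and 66.5 CPM in knockout-labelled libraries, against 11.2 and 53.8 CPM in NOD controls, the lower of which rested on 1 UMI. The sums did not overlap, yet the log2 fold change of 0.73 ± 0.50 missed the threshold (adjusted p = 0.355). The value of NOD control 2 came mostly from library 2-2, whose MC had 92.6 CPM (10 UMIs), inside the range of 76.5 to 108 CPM of knockout-labelled MC, while MC of library 2-1 had 11.1 CPM (1 UMI). Fcer1g had 2325, 2004 and 1867 CPM in knockout-labelled libraries, against 2165 and 2786 CPM in NOD controls. The groups overlapped, and the log2 fold change was -0.43 ± 0.19 (adjusted p = 0.143), or -0.63 without NOD control 1 (adjusted p = 0.0127). Fcgr2b had 73.7, 155.5 and 85.5 CPM in knockout-labelled libraries, against 78.5 and 117 CPM in NOD controls, so that the controls lay inside the knockout-labelled range (log2 fold change -0.15 ± 0.38, adjusted p = 0.834).

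**Figure D2:**
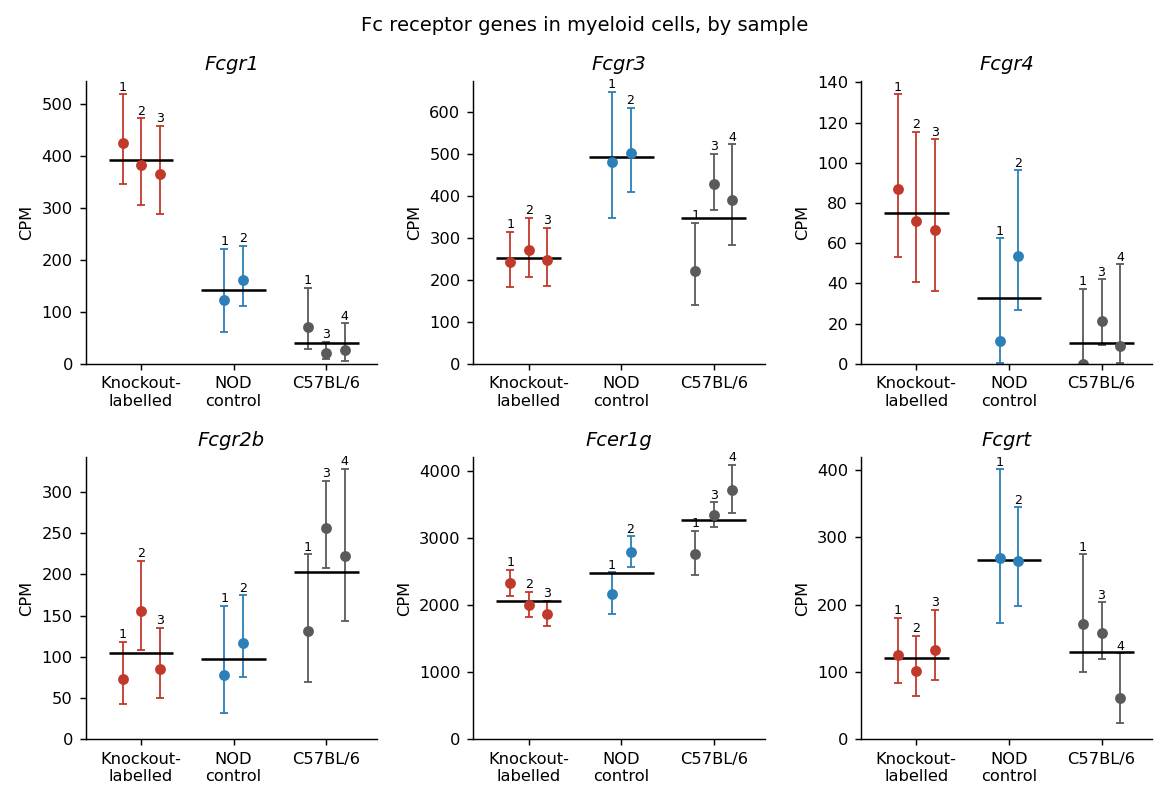
CPM of each gene in myeloid cells (MC, MP and pDC names) of every sample, numbered above its point, with exact 95% Poisson intervals and a black line at the group mean. Fcgr1 sits between 366 and 425 CPM in knockout-labelled libraries, above 161 CPM or less in NOD controls and 70.6 CPM or less in C57BL/6 mice, while Fcgr3 and Fcgrt sit below both NOD controls.

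The makeup of the myeloid cells moved with these differences. Cells named pDC numbered 46 beside 211 MC in knockout-labelled libraries and 9 beside 220 MC in NOD controls, and MC with a C1qa, C1qb or C1qc UMI were 36.0% of knockout-labelled MC against 57.7% of NOD control MC, at median depths of 2351 and 1046 UMIs. Without pDC, where 16.3% of genes were called, the log2 fold changes were 1.55 for Fcgr1 (adjusted p = 0.000893), -0.82 for Fcgr3 (adjusted p = 0.0206) and -1.44 for Fcgrt (adjusted p = 0.00184). Fcgr1 was higher both in MC with a C1q UMI (log2 fold change 1.11, adjusted p = 0.037) and in MC without one (2.98, adjusted p = 0.00115). In MC without a C1q UMI and with under 1% of UMIs from neutrophil genes it had 373, 423 and 427 CPM in knockout-labelled libraries, against 18.6 and 61.4 CPM in NOD controls. Fcgr3 missed the threshold within each class (-0.77, adjusted p = 0.0945, with a C1q UMI and -0.66, adjusted p = 0.161, without), while Fcgrt passed in MC with a C1q UMI (-2.17, adjusted p = 0.002) and missed it in MC without (-0.37, adjusted p = 0.631). In MC with a C1q UMI Fcgrt had 92.1, 82.5 and 117 CPM in knockout-labelled libraries, against 534.5 and 404 CPM in NOD controls. With the knockout-labelled libraries summed as 1 sample, which leaves the spread to the 2 controls and assumes that the sum varies like them, the log2 fold changes were 1.32 for Fcgr1, -1.06 for Fcgr3 and -1.25 for Fcgrt and none was called (adjusted p = 0.0713, 0.192 and 0.126).

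Fcgr4 differed in where its UMIs lay. In MC with a C1q UMI it had 118, 132 and 91.3 CPM in knockout-labelled libraries and 0 UMIs in both NOD controls, which allows up to 94.3 and 30.3 CPM. In NOD control 2 all 11 Fcgr4 UMIs came from MC without a C1q UMI. This split was read after the values were seen and was not tested.

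Shares of cells with a UMI were taken after each cell was thinned to 500 UMIs, and for Fcgr1 and Fcgr3 they put knockout-labelled and NOD control MC in the same order as the levels did. Fcgr1 was found in 19.0% of 210 thinned knockout-labelled MC (exact 95% interval 13.97% to 25.02%), 7.18% of 209 NOD control MC (4.07% to 11.6%) and 1.32% of 227 C57BL/6 MP (0.273% to 3.81%). Without thinning Fcgr1 was found in 47.4% of knockout-labelled MC, 15% of NOD control MC and 5.26% of C57BL/6 MP. In nmSC, which should lack the receptor, the thinned shares were 0% in knockout-labelled libraries, 0.27% in NOD controls and 0% in C57BL/6 mice. Fcgr3 was found in 15.7% of thinned knockout-labelled MC, 22.97% of NOD control MC and 11.01% of C57BL/6 MP. The Fcgr3 share in C57BL/6 MP went against its level there, so no order with C57BL/6 was read from it. Fcer1g was found in 62.4% of knockout-labelled MC, 68.4% of NOD control MC and 79.3% of C57BL/6 MP.

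Because Fcgr1 and Fcgr3 moved apart, the makeup of the activating receptor transcripts differed between the groups. Fcgr1 supplied 56.3%, 52.8% and 53.9% of the Fcgr1, Fcgr3 and Fcgr4 UMIs in myeloid cells of knockout-labelled libraries, against 20% and 22.45% in NOD controls and 24.1%, 4.52% and 6.25% in C57BL/6 mice. The knockout-labelled libraries lay above all 5 other samples in this share. Activating UMIs per UMI of the inhibitory Fcgr2b numbered 10.2, 4.66 and 7.94 in knockout-labelled libraries, 7.86 and 6.12 in NOD controls, and 2.23, 1.84 and 1.92 in C57BL/6 mice. Both NOD groups lay above C57BL/6 in that ratio and overlapped each other. Fcer1g UMIs per activating receptor UMI in MC and MP numbered 2.87, 2.56 and 2.57 in knockout-labelled libraries, 3.47 and 3.83 in NOD controls, and 9.45, 7.07 and 8.73 in C57BL/6 mice. UMI ratios between genes depend on how well each 3′ end is captured, so these ratios were compared between samples only, as descriptions without a test.

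**Figure D3:**
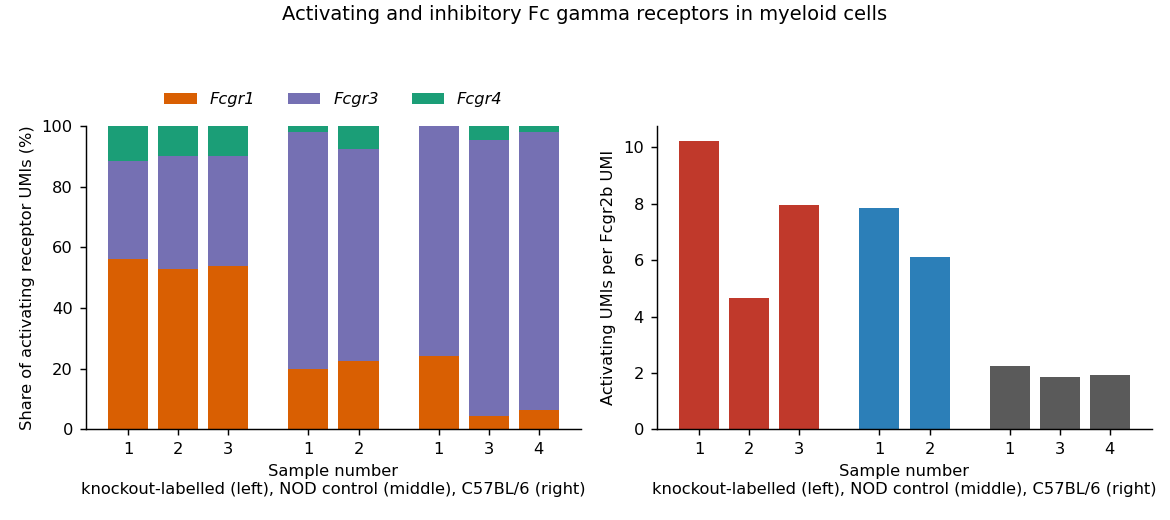
Left, share of the activating receptor UMIs (Fcgr1, Fcgr3, Fcgr4) of each sample's myeloid cells in percent; right, those UMIs per Fcgr2b UMI, with knockout-labelled libraries left, NOD controls in the middle and C57BL/6 right. Fcgr1 takes 52.8% to 56.3% in knockout-labelled libraries, and the ratio to Fcgr2b is at most 2.23 in C57BL/6 samples and at least 4.66 in NOD samples.

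Against C57BL/6 mice, myeloid cells of knockout-labelled libraries had more Fcgr1 and Fcgr4 and less Fcgr2b, Fcer1g and Fcgr3. These 5 of the 6 genes passed the threshold, where 17.0% of all 2916 genes tested did. Fcgr1 averaged 391 ± 30.6 CPM in knockout-labelled libraries and 39.53 ± 27.04 CPM in C57BL/6 samples (SD, n = 3 each), where it rested on 7, 8 and 3 UMIs. Its log2 fold change of 3.23 ± 0.42 (adjusted p = 0.000754) passed in every alternative run. Fcgr4 averaged 74.8 ± 10.6 CPM in knockout-labelled libraries and 10.1 ± 10.7 CPM in C57BL/6 samples, a log2 fold change of 1.99 ± 0.48 (adjusted p = 0.0188). Fcgr2b averaged 105 ± 44.2 CPM in knockout-labelled libraries and 203 ± 64.7 CPM in C57BL/6 samples, a log2 fold change of -1.32 ± 0.32 (adjusted p = 0.0199), with knockout-labelled library 2 inside the C57BL/6 range. Fcer1g averaged 2065 ± 235 CPM in knockout-labelled libraries and 3275 ± 481 CPM in C57BL/6 samples, which did not overlap (log2 fold change -1.0 ± 0.26, adjusted p = 0.0255). Fcgr3 averaged 254 ± 15.2 CPM in knockout-labelled libraries and 347 ± 110.5 CPM in C57BL/6 samples and only just passed (log2 fold change -0.79 ± 0.24, adjusted p = 0.0474), with overlapping groups. Fcgrt averaged 120.3 ± 16.1 CPM in knockout-labelled libraries and 130.4 ± 59.5 CPM in C57BL/6 samples (adjusted p = 0.399).

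These lesser differences were less steady than that of Fcgr1. Without cells in which neutrophil genes took at least 1% of UMIs the 5 calls held, with log2 fold changes of 1.94 for Fcgr4 and -1.02 for Fcer1g (adjusted p = 0.024 and 0.0224). With MC alone in the NOD mice and MP alone in C57BL/6 mice the log2 fold change of Fcer1g was -0.65 (adjusted p = 0.126) and that of Fcgr3 -0.35 (adjusted p = 0.387). Without pDC, Fcgr2b (log2 fold change -1.04, adjusted p = 0.0573), Fcer1g (-0.72, adjusted p = 0.0953) and Fcgr3 (-0.41, adjusted p = 0.293) missed the threshold and Fcgr4 passed it (2.37, adjusted p = 0.00865), where 15.2% of genes were called. Leaving out knockout-labelled library 1, 2 or 3 ended the calls of Fcgr4, Fcer1g and Fcgr3 (adjusted p from 0.0515 to 0.183), leaving out library 1 or 3 that of Fcgr2b, leaving out C57BL/6 3 those of Fcgr2b, Fcer1g and Fcgr3, and leaving out C57BL/6 4 that of Fcgr3. With the replicate number as a block none of these 4 was called (adjusted p = 0.1 for Fcgr2b, 0.283 for Fcgr4 and 0.384 for Fcer1g and for Fcgr3). The groups share only the numbers 1 and 3, whose samples did not move together (correlations -0.02 and 0.01). That block costs power, and the loss of calls under it is not read as unsteadiness.

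Between NOD controls and C57BL/6 mice no gene of the family was called in myeloid cells, where edgeR called 1.30% of 1687 genes tested. Fcgr1 averaged 142 ± 26.8 CPM in NOD controls (n = 2) and 39.53 ± 27.04 CPM in C57BL/6 samples (n = 3), which did not overlap (log2 fold change 1.94 ± 0.61, adjusted p = 0.256). It passed the threshold once C57BL/6 1, the highest of its group at 70.6 CPM, was left out (2.57, adjusted p = 0.0209). Fcgr2b averaged 97.9 ± 27.4 CPM in NOD controls and 203 ± 64.7 CPM in C57BL/6 samples, again without overlap (log2 fold change -1.17 ± 0.39, adjusted p = 0.303). Both had an unadjusted p under 0.05 (0.0119 for Fcgr1 and 0.0168 for Fcgr2b), and DESeq2 called neither (adjusted p = 0.467 and 0.641). The log2 fold changes of Fcgr3 (0.35 ± 0.34), Fcer1g (-0.57 ± 0.39) and Fcgrt (0.82 ± 0.47) had unadjusted p-values of 0.331, 0.183 and 0.121, and Fcgr4 was too low to be tested. Without pDC 1.37% of genes were called, again none of the family.

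Fcer1g also pairs with receptors other than those for IgG, and it was well expressed in cells with few or no UMIs of Fcgr1, Fcgr3 and Fcgr4. Pooled knockout-labelled pDC had 763 CPM. These cells did carry Fcgr2b, with 77.85 CPM on 4 UMIs in library 2, the 1 sample with at least 20 pDC. Cells named CD8 had 590, 491 and 365 CPM in knockout-labelled libraries, against 224 CPM in NOD control 2, the 1 control with at least 20 such cells, and cells named TC in C57BL/6 mice had 571.5, 709 and 686 CPM. CD4 cells stayed at 67.6, 53.0 and 81.2 CPM in knockout-labelled libraries, against 49.1 and 33.0 CPM in NOD controls. Over the T cell names, then, Fcer1g was high where CD8 or mixed T cells were named and low in CD4 cells.

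Within TC and CD8, most Fcer1g UMIs lay in the cells with natural killer transcripts, but not within CD4. In C57BL/6 TC, the 16.5% of cells with at least 1 UMI of the list Ncr1, Klrb1c, Klra8, Eomes, Gzma and Klre1 held 94.7% of the Fcer1g UMIs, at 3721 CPM (exact interval 3240 to 4253) against 42.3 CPM (21.9 to 73.9) in the other 278 cells. The T cell markers stood at 2042 CPM in the 55 cells with the list and 4308 CPM in the rest. In knockout-labelled CD8, 46.3% of cells carried the list and held 87.5% of the Fcer1g UMIs, at 834 CPM against 124.8 CPM in the other 695 cells. NOD control CD8 showed the same split, with 1064 CPM in 18 cells and 25.45 CPM in 30. The T cell markers stood at 7799 CPM in the knockout-labelled CD8 cells with the list and 11380 CPM in the rest. In NOD control CD8 they stood at 2836 and 4402 CPM. A UMI of the list therefore did not by itself mark a CD8 cell as a natural killer cell rather than a T cell. In CD4 the cells without the list held 73.1% of the Fcer1g UMIs in knockout-labelled libraries and 81.8% in NOD controls, since few CD4 cells carried it (6.86% and 1.08%), although the level was higher in those that did. Although natural killer cells are known to carry the receptor encoded by Fcgr3, the 55 C57BL/6 cells had 0 Fcgr3 UMIs, which allows up to 51.9 CPM, and the 599 knockout-labelled CD8 cells had 5. The split was made after values were seen and is a description over pooled cells, without a test.

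**Figure D4:**
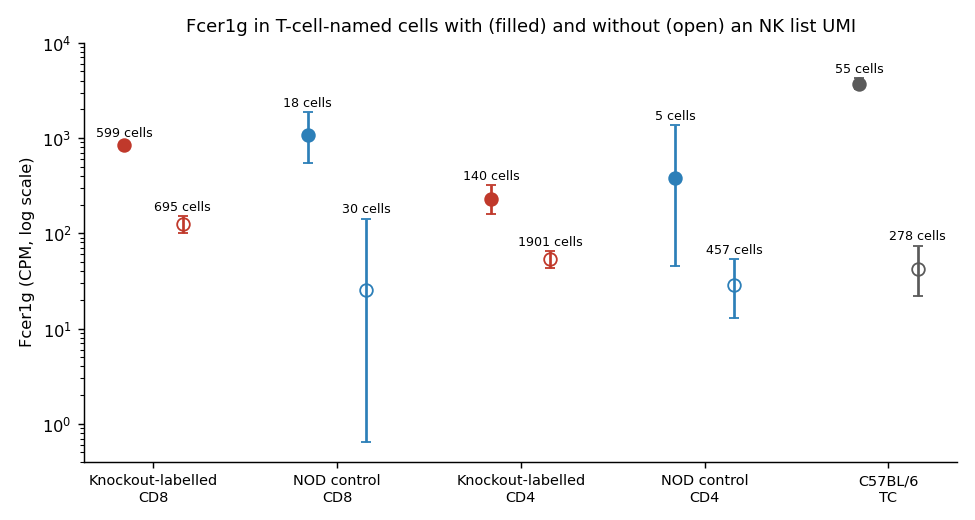
Fcer1g level (CPM, log axis) in cells with T cell names, split into those with at least 1 UMI of the natural killer list (filled) and those without (open), pooled per group, with exact 95% Poisson intervals and cell numbers. The filled points lie above the open points in all 5 pairs, at 3721 against 42.3 CPM in C57BL/6 TC.

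Summed over BC, CD4, CD8 and TC, the lymphoid cells, Fcer1g had 242, 201 and 172.5 CPM in knockout-labelled libraries, against 105 and 40.4 CPM in NOD controls and 325, 586 and 578 CPM in C57BL/6 samples. The 3 groups did not overlap, with C57BL/6 highest and NOD controls lowest. It averaged 205 ± 34.8 CPM in knockout-labelled libraries (n = 3) and 72.8 ± 45.7 CPM in NOD controls (n = 2), a log2 fold change of 2.04 ± 0.27 (adjusted p = 6.58e-11), where 19.4% of 8999 genes were called. The share of CD8 among these cells moved with it, at 29.5%, 28.9% and 29.1% in knockout-labelled libraries against 6.12% and 3.80% in NOD controls. In CD4 cells alone the log2 fold change was 0.82 ± 0.48 (adjusted p = 0.319), where 10.8% of genes were called, while over the T cell names it was 1.87 ± 0.32 (adjusted p = 2.03e-07, 11.6% called). Against C57BL/6 mice Fcer1g was lower in lymphoid cells of both NOD groups. The log2 fold change was -1.76 ± 0.28 in knockout-labelled libraries (adjusted p = 0.000665, 6.94% of 7158 genes called) and -3.44 ± 0.59 in NOD controls (adjusted p = 0.0154, 1.79% of 2343 genes called), 2 comparisons that share the C57BL/6 samples. Leaving out NOD control 2 ended the call in both comparisons with NOD controls (adjusted p = 0.348 against knockout-labelled libraries and 0.5085 against C57BL/6). NOD control 1 had 3 Fcer1g UMIs in 49 lymphoid cells. With T cell names alone the differences from C57BL/6 were -1.89 ± 0.29 in knockout-labelled libraries (adjusted p = 0.000345, 7.62% called) and -3.46 ± 0.60 in NOD controls (adjusted p = 0.0267, 1.29% called), and BC gave -0.30 ± 0.75 in knockout-labelled libraries (adjusted p = 0.898, 4.12% called).

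The effect of the knockout label on Fcer1g differed between myeloid and lymphoid cells. The difference of the log2 fold changes, myeloid minus lymphoid, was -2.51 ± 0.37 (adjusted p = 3.35e-06, 4.55% of 4656 genes called), or -1.43 without NOD control 2 (adjusted p = 0.497), and against T cell names alone it was -2.35 ± 0.45 (adjusted p = 3.22e-05, 2.95% called). Against CD4 cells it was -1.38 ± 0.57 and missed the threshold (adjusted p = 0.234, 2.39% called), as did the difference from EC (-2.90 ± 1.06, adjusted p = 0.226, 1.50% called). In EC Fcer1g had only 6 UMIs in knockout-labelled libraries and 2 UMIs in NOD controls, too few to be tested in EC alone. The higher CD8 share of knockout-labelled lymphoid cells moved with this result and its part in it was not tested beyond the CD4 value.

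Fcgr2b was the Fc gamma receptor transcript of B cells. It had 58.3, 59.4 and 61.9 CPM in BC of knockout-labelled libraries, against 52.7 CPM in NOD control 2 and 14.8, 58.5 and 37.9 CPM in C57BL/6 samples, where it rested on 1 or 2 UMIs per sample. B cells of the NOD groups thus lay within a narrow range, and the difference from C57BL/6 in BC was not called (log2 fold change 0.61 ± 0.68 for knockout-labelled libraries, adjusted p = 0.701). Fcgr1 and Fcgr3 stayed between 1.7 and 6.999 CPM in BC of the same 4 NOD samples, each on 1 to 3 UMIs. Over all lymphoid cells Fcgr2b had 16.9, 17.2 and 16.4 CPM in knockout-labelled libraries, against 0 and 34.03 CPM in NOD controls, so the controls lay on both sides. edgeR called it lower in knockout-labelled libraries (log2 fold change -1.18 ± 0.37, adjusted p = 0.0127), although the unweighted means were 16.8 ± 0.404 CPM in knockout-labelled libraries and 17.02 ± 24.1 CPM in NOD controls. The fit rests on NOD control 2, which held all 32 control UMIs, and DESeq2 did not call the gene (adjusted p = 0.96). The BC share moved with these values, at 26%, 24.7% and 24.2% in knockout-labelled libraries against 14.3% and 60.5% in NOD controls.

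Outside leukocytes Fcgr2b had UMIs in mySC of 1 sample of each group. Knockout-labelled library 1 had 50.3 CPM on 4 UMIs and NOD control 2 had 10.8 CPM on 6 UMIs. C57BL/6 3 had 45.3 CPM on 14 UMIs, and the other mySC samples with at least 20 cells had none. A count of 0 allows up to 68.5 and 39.0 CPM in knockout-labelled libraries 2 and 3. It allows up to 229 CPM in NOD control 1 and 120.9 CPM in C57BL/6 1, so these samples can hold as much as those with UMIs. The 14 UMIs of C57BL/6 3 were spread over 13 of 355 mySC, against 2 UMIs in 1156 nmSC of the same sample. The mySC held 1 Fcer1g UMI and 3 macrophage list UMIs, with no macrophage list UMI in the 13 cells, whereas MC and MP of that sample held 96 Fcgr2b, 1252 Fcer1g and 1433 macrophage list UMIs. In C57BL/6 3, then, Fcer1g UMIs outnumbered Fcgr2b UMIs in MC and MP, and Fcgr2b UMIs outnumbered Fcer1g UMIs in mySC. In NOD control mySC the order was the other way, with 12 Fcer1g UMIs and 6 Fcgr2b UMIs. The nmSC of NOD control 1 had 10 Fcgr1 UMIs in 9 of 982 cells with 0 Fcer1g UMIs, where its MC had 11 Fcgr1 UMIs and 191 Fcer1g UMIs.

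Fcgrt had the broadest pattern of the 6 genes. In nmSC it had 557, 439 and 243 CPM in knockout-labelled libraries, against 673 and 473 CPM in NOD controls, and 468, 516 and 634 CPM in C57BL/6 samples. Cells named fibro had 610.0 and 478.5 CPM in NOD controls and 329, 485 and 556 CPM in C57BL/6 samples. In EC it had 229, 316 and 200 CPM in knockout-labelled libraries, against 391.9 and 257 CPM in NOD controls and 131, 277 and 434 CPM in EC1 of C57BL/6. In each of these 3 types the groups overlapped. The highest pooled level, 821 CPM, belonged to the 25 C57BL/6 cells named lymph, and T cell names lay between 8.38 and 37.1 CPM in the NOD groups.

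**Figure D5:**
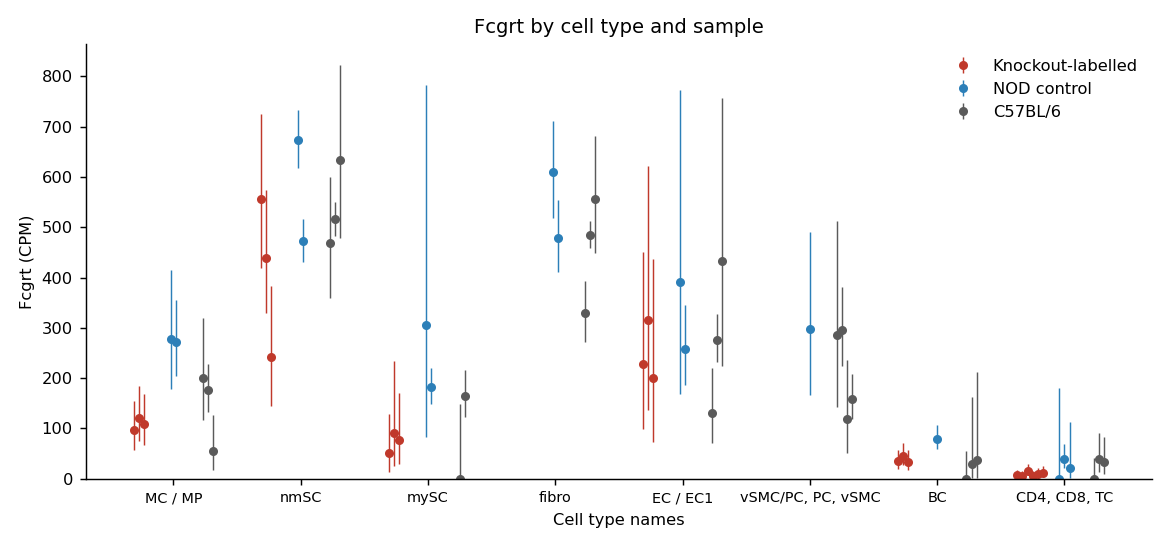
Fcgrt level (CPM) by cell type name and sample for samples with at least 20 cells of the type, with exact 95% Poisson intervals; red is knockout-labelled, blue NOD control and grey C57BL/6. The gene runs from 243 to 673 CPM in nmSC, and the knockout-labelled points lie below both NOD control points in MC and in mySC.

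Outside myeloid cells Fcgrt differed between knockout-labelled libraries and NOD controls in mySC. In mySC it had 50.3, 91.4 and 77.9 CPM in knockout-labelled libraries, against 305.5 and 182 CPM in NOD controls, a log2 fold change of -1.69 ± 0.41 (adjusted p = 0.00726, 11.4% of 1711 genes called). The knockout-labelled values rested on 4, 4 and 6 UMIs and that of NOD control 1 on 4 UMIs in 20 cells, and the call was kept in 6 alternatives and lost in 7. It was lost with DESeq2 (adjusted p = 0.416), without a filter (0.0913), with the replicate number as a block (0.266), with the knockout-labelled libraries summed (0.651), and without NOD control 2 (0.485), knockout-labelled library 1 (0.0596) or library 3 (0.0771), at log2 fold changes from -1.87 to -1.47. In the same mySC all 6 genes of the Schwann list had UMIs in each sample, and their sum moved with Fcgrt, with 8248, 7172 and 6299 CPM in knockout-labelled libraries against 21000 and 23840 CPM in NOD controls, and their part in the result was not tested. In nmSC the log2 fold change was -0.46 ± 0.28 (adjusted p = 0.383, 3.90% of 2101 genes called). The difference of the effect between myeloid cells and nmSC was -0.83 ± 0.37 and did not pass (adjusted p = 0.275, 3.40% of 4795 genes called), nor did that between myeloid cells and mySC (0.37 ± 0.55, adjusted p = 0.896, 3.23% called). Between NOD controls and C57BL/6 mice the log2 fold changes of Fcgrt were -0.03 ± 0.33 in nmSC, 0.09 ± 0.32 in fibro and 0.14 ± 0.43 in EC (adjusted p = 0.99, 0.974 and 0.996), where 2.28%, 1.82% and 1.96% of genes were called. Against C57BL/6 the knockout-labelled nmSC gave -0.42 ± 0.30 (adjusted p = 0.449, 5.79% called). In EC no gene of the family was frequent enough to be tested in knockout-labelled libraries, either against NOD controls (2.60% of 538 genes called) or against C57BL/6 (6.14% of 505). In lymphoid cells Fcgrt had 13.4, 16.6 and 18.4 CPM in knockout-labelled libraries, against 0 and 63.8 CPM in NOD controls. As with Fcgr2b, the controls lay on both sides, edgeR called it (log2 fold change -2.15 ± 0.32, adjusted p = 4.82e-09) on the UMIs of NOD control 2, and DESeq2 did not (adjusted p = 0.287).

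The surrounding pathway was described by gene lists. Of 12 activating signalling genes (among them Tyrobp, Syk, Lyn, Fgr, Vav1, Plcg2, Btk, Pik3cd, Lcp2, Lat2, Prkcd), 0 of 11 tested were called in myeloid cells of knockout-labelled libraries against NOD controls, with a median log2 fold change of 0.45 beside 0.04 over all genes. Without pDC 1 of 11 tested was called, Tyrobp, which was lower, with a median log2 fold change of 0.36, where 16.3% of genes were called. Of the 5 inhibitory signalling genes, only the adaptor Dok2 was called over all myeloid cells. It had 43.4, 57.8 and 33.2 CPM in knockout-labelled libraries, against 381 and 386 CPM in NOD controls (log2 fold change -3.24 ± 0.29, adjusted p = 4.04e-06). The single other Fc receptor-like gene tested, Fcrls, had 4.34, 48.9 and 38.0 CPM in knockout-labelled libraries, against 987 and 543 CPM in NOD controls (-4.75 ± 0.42, adjusted p = 4.04e-06). Both lay below every control sample, and against C57BL/6 the log2 fold changes were -3.45 for Dok2 (adjusted p = 0.000123) and -4.31 for Fcrls (adjusted p = 0.000769). Among the partners of Fcer1g or Fcgrt, 2 of 5 tested rose and 1 fell, where 16.4% of all genes were called. B2m, the second chain of the neonatal Fc receptor, had 5929, 6229 and 6356 CPM in knockout-labelled libraries, against 3140 and 3202 CPM in NOD controls (log2 fold change 0.80 ± 0.18, adjusted p = 0.0056), so it rose while Fcgrt fell. Clec4e, a lectin receptor that signals through the Fcer1g chain, rose (log2 fold change 1.48 ± 0.38, adjusted p = 0.0151), and Pira2, of the paired immunoglobulin-like receptors, fell (-1.47 ± 0.29, adjusted p = 0.00282).

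Against C57BL/6 mice, the exchange factor gene Vav1 of the activating signalling list was higher in knockout-labelled myeloid cells (log2 fold change 1.70 ± 0.48, adjusted p = 0.0366). The phosphatase gene Ptpn6 was higher too (1.12 ± 0.26, adjusted p = 0.0149). Without pDC Tyrobp was called lower here as well, where 15.2% of genes were called. Between NOD controls and C57BL/6 mice none of the 6 activating, 2 inhibitory and 4 partner genes tested in myeloid cells was called, where 1.30% of all genes were. In lymphoid cells of that comparison 1 of 4 activating genes tested was called, Tyrobp, which was lower, where 1.79% of all genes were called. In T cell names Tyrobp was the 1 activating gene tested and was called lower too, where 1.29% of all genes were called.

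In lymphoid cells Tyrobp, another adaptor chain of natural killer cells, moved with Fcer1g. Its log2 fold change in knockout-labelled libraries against NOD controls was 1.31 ± 0.24 (adjusted p = 6.02e-06), and that of the natural killer receptor gene Ncr1 was 2.88 ± 0.37 (adjusted p = 1.67e-11). Of the activating signalling genes, those that fell there included the kinase genes Syk (log2 fold change -1.16 ± 0.24) and Btk (-1.03 ± 0.35), and 4 of 5 tested other Fc receptor genes fell, among them Fcmr, the IgM receptor (-1.46 ± 0.18, adjusted p = 4.13e-12), where 19.4% of all genes were called. The BC share moved with these genes, at 24.2% to 26% in knockout-labelled libraries against 14.3% and 60.5% in NOD controls. In T cell names alone, 0 of 2 tested other Fc receptor genes and 0 of 9 activating signalling genes fell, and 2 of those 9 rose (Tyrobp and Lat2), where 11.6% of genes were called.

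Transcripts of the heavy chains of IgG, the ligand, were most frequent in NOD control 2. Ighg2b had 44, 10 and 34 UMIs in lymphoid cells of knockout-labelled libraries, against 0 and 2402 UMIs in NOD controls and 0 in all C57BL/6 samples. In NOD control 2, 94.96% of those UMIs and 96.9% of the 831 Ighg2c UMIs came from 1 cell each. Ighg1 had 6, 3 and 1 UMIs in knockout-labelled libraries, against 0 and 5066 UMIs in NOD controls, the largest cell holding 34.6%. None of the 4 IgG heavy chain genes passed the filter on low counts in myeloid cells. In myeloid cells the light chain gene Igkc had 199.5, 578 and 285 CPM in knockout-labelled libraries, against 0 and 435 CPM in NOD controls and 0 UMIs in all C57BL/6 samples.

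The genes whose pattern was most like each receptor were ranked by Pearson correlation of log2(CPM + 1) over 64 sums of 1 sample and cell type, among 10817 genes. The sums of 1 sample share a library, so the values are descriptions. Fcgr1 was most like Mcemp1 (r = 0.795), Ms4a7, C5ar1, C1qc and Bcl2a1a. Fcgr3 was most like Cd300ld (0.919), Tbxas1, Clec4a1, Lrrc25 and Clec4a2, and Fcgr4 most like F10 (0.94), Igsf6, Sirpb1c, Gm5150 and Cd300ld. Fcgr2b stood closest to Spi1 (0.899), which encodes PU.1, then Cyp4f18, Ly86, Cybb and Plbd1. Fcer1g stood closest to Selplg (0.822), Ccr2, Ctss, Tyrobp and Epsti1. Fcgrt had other company, led by Tnfsf12 (0.794), Laptm4a, Prdx4, Sult1a1 and Tmem256, and its r with the other 5 members lay between -0.299 and 0.054. With a pseudocount of 10 the 5 most like genes still held all 5 of those of Fcgr3 and 4 of those of Fcgr2b, though in another order, and 1 or 2 of those of each other gene.

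In naive Lewis rats Fcer1g and Fcgr2b were highest in myeloid cell names, and Fcgr2b also appeared in B cells. Cells named PF4 MC had 2463 and 2351 CPM of Fcer1g in libraries 1 and 2, and cells named MHC II APC had 1165 and 1074 CPM. The 19 and 18 cells named mast, whose IgE receptor needs the same chain, had 1925 and 2077 CPM. Other rat types lay between 61.6 and 196 CPM, with library 2 above library 1 in each of them. Fcgr2b had 97.5 and 78.0 CPM in PF4 MC, 116 and 105 CPM in MHC II APC and 70.1 and 63.2 CPM in BC, and at most 6.97 CPM in the rest. Rat Fcgrt was highest in PF4 MC, at 864 and 708 CPM, above nmSC (635 and 576 CPM) and fibro (568 and 525 CPM), whereas mouse MC and MP lay below their nmSC. Counts of 2 species on different annotations were not compared by a test. The rat genes with related symbols, Fcgr1a and Fcgr3a, had 113.6 and 99.99 CPM (Fcgr1a), and 31.4 and 40.7 CPM (Fcgr3a), in PF4 MC. Fcgr3a stood at 1.48 and 0.747 CPM in MHC II APC, where Fcgr1a had 79.0 and 69.5 CPM.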

How the data were processed

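Droplet libraries of mouse and rat peripheral nerve were analysed from the deposited matrices of UMI counts per gene and cell barcode, with the cell type names the authors deposited. The authors made these counts with Cell Ranger 3.0.2 on mm10 and Rnor_6.0, per the submitters' processing notes. How doublets were treated, and how reads on overlapping or antisense genes were counted, is not given in the sources used here. The antisense genes over Fcgr2b and Fcgrt had 0 and 7 UMIs, against 399 and 5137 UMIs of the receptor genes.

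The family's members and the gene lists were chosen with earlier results of these data known. Counts were summed per sample and cell type for sets with at least 20 cells in each sample. Libraries 2-1 and 2-2 of the NOD control were summed. Every gene of a set was tested with edgeR 4.0.16 (R 4.3.3), using TMM scaling, filterByExpr with a minimum count of 10, the quasi-likelihood test and Benjamini-Hochberg adjustment at 0.05 over all genes tested. An interaction with sample as a block tested whether effects differed between cell types. Levels are CPM of the summed counts with exact 95% Poisson intervals, and shares have Clopper-Pearson intervals. Both cover counting error only. A count of 0 was taken to allow 3 UMIs. Text names the members, list genes that passed the test and, for each member, the 5 genes most like it. Lists were described by counts and medians. The values of 1 list gene are not reported here.

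DESeq2 1.42.0, RLE scaling, no filter, leaving out each sample, removal of Scrublet calls (0.214% to 1.68% of barcodes per mouse library, kept otherwise) and the other settings in the closing section were alternatives. On simulated counts with 200 changed genes among the 3514 of the myeloid comparison of knockout-labelled libraries with NOD controls, edgeR recovered 35% of changes of 1 and 88% of changes of 2 on the log2 scale, with 5 false calls. Other software was Python 3.11.15, numpy 2.4.6, scipy 1.17.1, pandas 2.3.3 and scanpy 1.11.5.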

Additional observations from a re-analysis of the deposited data

Results flagged for a closer look

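The fitted effect of the knockout label on Fcer1g differed between myeloid and lymphoid cells, and the difference itself passed a test. The log2 fold change was -0.43 ± 0.19 in myeloid cells and 2.04 ± 0.27 in lymphoid cells. Their difference in the joint edgeR fit was -2.51 ± 0.37 (adjusted p = 3.35e-06, 3 knockout-labelled against 2 NOD control samples). The myeloid effect alone did not pass (edgeR, adjusted p = 0.143) and its groups overlapped, and without NOD control 2 the difference was -1.43. The share of CD8 among lymphoid cells was 29.5%, 28.9% and 29.1% in knockout-labelled libraries against 6.12% and 3.80% in NOD controls. Against CD4 cells the difference was -1.38 ± 0.57 and missed the threshold (adjusted p = 0.234). The part of the CD8 share was not tested beyond this value.

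Barcodes to which the authors gave no cell type name enter none of the comparisons, and they held Fcer1g in the knockout-labelled libraries at 132.9 CPM (exact 95% interval 83.3 to 201, 22 UMIs in 123 barcodes), above the 0 UMIs in 53 such barcodes of NOD controls (which allows up to 48.1 CPM). Such barcodes of C57BL/6 mice had 133.9 CPM. This difference was not tested over samples.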

How the results depend on the processing

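Fcgr1 in myeloid cells of knockout-labelled libraries was called against C57BL/6 under every alternative, and against NOD controls under every alternative except the sum of the knockout-labelled libraries as 1 sample. Of the alternative values of single genes, 365 kept direction and side of the threshold, 57 lost the call, 3 gained one and 16 turned direction. The alternatives with MP or MC alone, without neutrophil-rich cells, by C1q UMI and without receptor and haemoglobin genes (671 genes), and those of the Fcer1g difference, were chosen after seeing the data. Where a call was lost, the cause was not tested. Requiring at least 10 cells added no set. Low UMI numbers limit Fcgr4 everywhere and Fcgr1 in C57BL/6 and NOD control 1 myeloid cells.

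Counts of genes called moved by over 1.5 times as follows. For knockout-labelled libraries against NOD controls, the 576 myeloid calls became 294 with DESeq2, 256 with the knockout-labelled libraries summed, 265 in MC with a C1q UMI and 212 in MC without. The 1743 lymphoid calls became 229 with DESeq2, 167 summed, 960 in T cell names and 744 in CD4. The 82 nmSC calls became 53 with DESeq2, 175 without a filter and 3 summed, the 195 mySC calls 317 with libraries 2-1 and 2-2 apart, 70 with DESeq2 and 121 summed, and the 14 EC calls 32 with those libraries apart and 31 without a filter. For NOD controls against C57BL/6, the 22 myeloid calls became 42 apart, 11 with RLE and 81 without a filter, the 42 lymphoid calls 69 apart, 72 without a filter and 24 in T cell names, the 175 nmSC calls 83 with DESeq2 and 286 without a filter, the 87 fibro calls 247 and the 41 EC calls 79 without a filter. For knockout-labelled libraries against C57BL/6, the 495 myeloid calls became 813 without a filter and 122 summed, the 497 lymphoid calls 810 with DESeq2, 790 without a filter, 22 summed and 120 in BC, the 95 nmSC calls 358 and the 31 EC calls 121 without a filter. The Fcer1g difference was -1.38 against CD4 alone.

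Leaving out each sample in turn gave, for knockout-labelled libraries against NOD controls, 349 to 501 myeloid, 262 to 2524 lymphoid, 9 to 348 nmSC, 50 to 403 mySC and 7 to 37 EC calls. For NOD controls against C57BL/6 it gave 2 to 59 myeloid, 6 to 42 lymphoid, 48 to 174 nmSC, 55 to 118 fibro and 9 to 55 EC calls, and for knockout-labelled libraries against C57BL/6 298 to 813 myeloid, 148 to 546 lymphoid, 70 to 185 nmSC and 22 to 46 EC calls. The Fcer1g difference ranged from -2.65 to -1.43.

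Direction turned for Fcgr2b in myeloid cells of knockout-labelled libraries against NOD controls (main value -0.15), at 0.28 without NOD control 2 (leave-one-out range -0.52 to 0.28), 0.09 without knockout-labelled library 1, 0.14 in MC with a C1q UMI, 0.13 in MC without and 0.06 without pDC, and for Fcgr4 at -0.05 in MC without a C1q UMI. Without NOD control 2, where NOD control 1 had 1 UMI or none, lymphoid Fcgr1 was -1.32 (range to 1.97), Fcgr2b 7.38 (range from -1.22) and Fcgrt 7.31 (range from -2.24). For NOD controls against C57BL/6, Fcgrt turned in nmSC at 0.04 without a filter, 0.05 without C57BL/6 4 and 0.29 without NOD control 2 (range from -0.32), in fibro at -0.10 without NOD control 1 (range to 0.21), and in EC at -0.04 without a filter and -0.11 without C57BL/6 1 (range to 0.44).

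Replicate numbers shared by groups did not pair the samples: deviations of same-numbered samples correlated at 0.05 and 0.04 for knockout-labelled libraries with NOD controls and at -0.02 and 0.01 with C57BL/6. The replicate block gave 331 myeloid, 219 lymphoid and 92 mySC calls against NOD controls, with Fcgr2b at 0.07 in myeloid cells, and 87 myeloid, 227 lymphoid and 57 nmSC calls against C57BL/6. For the third comparison no block was fitted. No paired analysis was possible because its groups, NOD controls and C57BL/6, share only the number 1.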
